A study of Mus musculus with 9 samples.

Results

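The receptors for follicle-stimulating hormone (Fshr), luteinizing hormone (Lhcgr), prolactin (Prlr) and oxytocin (Oxtr) were followed in the ovaries of mice with and without estrogen receptor β (ERβ). They are 4 of the 46078 genes of the count table, taken by their symbols, and each symbol stood on 1 row. Whole ovaries of 5 WT mice and of 4 ERβKO mice, all C57BL/6J, were sequenced as RNA with 1 library per sample. In the ERβKO mice exon 3 of Esr2, the gene of ERβ, is deleted in the germline after crossing floxed mice to a Rosa26-Cre deleter line, and the WT controls are offspring without Cre. The deletion is thus present in every tissue, the pituitary included. Mice were aged 4 to 20 weeks across experiments, and ovaries were taken without regard to the stage of the estrous cycle. The labels mark all 9 samples as untreated, while a protocol text that all of them share describes a high-fat diet with ligand or vehicle injections, so what the mice received is not settled by the labels.

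Fshr and Lhcgr are G protein-coupled receptors that act mainly through Gs and cyclic AMP. Fshr is known as the receptor of granulosa cells that drives follicle growth, and Lhcgr is carried by theca cells, by granulosa cells of late follicles and by the corpus luteum. Prlr is a single-pass cytokine receptor that works through Jak2 and Stat5 and, in rodents, maintains the corpus luteum. Oxtr is a Gq-coupled receptor best known from the contraction of uterine and mammary muscle. In whole ovaries, fewer cells of a type and less RNA per cell cannot be told apart.

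In ERβKO ovaries Oxtr fell 3.98-fold and was the 1 receptor of the 4 that met the criteria for a differentially expressed gene (DEG) in edgeR's test. Fshr was 2.08-fold higher and Prlr 1.96-fold lower, both short of the criteria in that test, and Lhcgr varied widely within each genotype. A DEG here has a Benjamini-Hochberg adjusted p under 0.05 in edgeR's quasi-likelihood test, a log2 fold change beyond 0.4 in either direction and a mean of more than 1 FPKM in WT or ERβKO ovaries. FPKM are fragments per kilobase of gene, scaled to the mapped fragments of a library, as the authors calculated them. All 4 receptors passed the filter on low counts, and DEGs made up 1.72% of the 16722 genes tested, 0.915% being higher and 0.801% lower in ERβKO ovaries. In DESeq2, the study's tool, 4.8% of genes met the same thresholds, Fshr (adjusted p 0.00405) and Oxtr (0.000448) among them. The paper reports Fshr as significantly higher without ERβ, so the outcome for Fshr here differs from the study's through the tool used. With all 9 ovaries, the balance between the receptors differed between the genotypes for 3 of the 6 pairs. These 3 pairs are all drawn from Fshr, Prlr and Oxtr. Prlr and Oxtr rose and fell together from ovary to ovary. This rests mainly on the WT ovaries, where Oxtr ranged 4.53-fold, against 1.51-fold among the ERβKO ovaries. The order of the WT ovaries for both receptors was also that of the first principal component of all genes, given below.

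The libraries held 12353740 to 18717510 counted fragments, and no pair of libraries was identical. On the first principal component of all genes (35.9% of the variance) WT replicate 2 lay at 9.43, the other WT ovaries between -43.8 and -15.6 and the ERβKO ovaries between 19.4 and 35.4. WT replicates 4 and 5 carry library numbers above 200, and the other 7 libraries carry numbers below it. Since no ERβKO library is numbered above 200, the genotypes could be compared within the lower numbers only, where the smallest p of an exact test is 0.0571. Esr2 itself, counted over its whole length with the remaining exons, reached 12.4 to 23.9 FPKM in WT against 10.5 to 23.7 FPKM in ERβKO ovaries, so its count does not check the labels.

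The genes lie on 3 chromosomes of GRCm38, the build of the deposited files. Fshr (ENSMUSG00000032937) spans chr17:88985170-89200612 and Lhcgr (ENSMUSG00000024107) chr17:88741549-88791976, both on the minus strand and 193.2 kb apart. Prlr (ENSMUSG00000005268) lies on the plus strand at chr15:10177238-10349180, and Oxtr (ENSMUSG00000049112) on the minus strand at chr6:112473684-112489808. In the GENCODE M21 annotation, the longest coding transcript has 10 exons for Fshr, 11 for Lhcgr, 10 for Prlr and 2 for Oxtr. Prlr has 12 annotated transcripts, 7 of them coding, which a value per gene does not separate. No exon of the 4 genes overlaps an exon on the opposite strand, and 1.323% of the exon bases of Prlr are shared with Gm21973 on its own strand. Transcripts of different receptors share no 31-base word, apart from 3 such words between Prlr and Oxtr.

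The start regions are shown because Oxtr and Prlr, which varied together, and Fshr and Lhcgr, which are neighbours, can be compared there. Each is 300 bases of the GRCm38.p6 genome, from 250 before to 50 after a RefSeq start, printed 5′ to 3′ on the strand of the gene. Prlr has 3 such starts, and the one that holds a motif is printed. Capitals mark matches on either strand to the E-box CACGTG bound by Usf factors, the GC box GGGCGG bound by Sp factors or the Stat site TTCNNNGAA. The regions are chr17:89200626-89200925 for Fshr, chr17:88791965-88792264 for Lhcgr, chr15:10223656-10223955 for Prlr and chr6:112489776-112490075 for Oxtr.
Fshr: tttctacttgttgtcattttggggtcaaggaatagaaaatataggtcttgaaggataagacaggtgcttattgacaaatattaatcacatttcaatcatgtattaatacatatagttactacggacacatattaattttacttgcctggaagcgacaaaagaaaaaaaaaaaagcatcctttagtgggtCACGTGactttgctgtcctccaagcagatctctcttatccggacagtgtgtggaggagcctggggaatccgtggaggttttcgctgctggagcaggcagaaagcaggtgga
Lhcgr: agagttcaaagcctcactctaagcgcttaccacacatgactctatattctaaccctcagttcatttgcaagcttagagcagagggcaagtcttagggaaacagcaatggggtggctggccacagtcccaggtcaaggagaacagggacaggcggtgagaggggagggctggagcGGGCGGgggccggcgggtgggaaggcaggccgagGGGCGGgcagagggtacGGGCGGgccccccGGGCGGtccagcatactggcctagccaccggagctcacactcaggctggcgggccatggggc
Prlr: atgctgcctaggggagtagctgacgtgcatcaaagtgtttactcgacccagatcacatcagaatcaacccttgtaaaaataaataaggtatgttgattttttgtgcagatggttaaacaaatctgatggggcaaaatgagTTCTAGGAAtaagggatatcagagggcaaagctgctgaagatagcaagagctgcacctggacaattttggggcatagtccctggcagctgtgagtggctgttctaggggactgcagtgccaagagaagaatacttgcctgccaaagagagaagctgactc
Oxtr: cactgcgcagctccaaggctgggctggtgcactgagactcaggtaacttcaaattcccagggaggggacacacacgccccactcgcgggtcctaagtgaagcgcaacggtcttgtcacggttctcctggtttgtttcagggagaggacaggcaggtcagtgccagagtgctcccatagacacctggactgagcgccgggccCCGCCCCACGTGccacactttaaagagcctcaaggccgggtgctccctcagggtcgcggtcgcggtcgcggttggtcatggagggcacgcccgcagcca
Fshr and Oxtr each held an E-box, 61 and 43 bases before the start, a motif found in 7.15% of the 32851 RefSeq start regions of this length. Lhcgr held 4 GC boxes within the last 76 bases before its start, and Oxtr held 1 on the other strand, a motif found in 35.7% of the regions. The Stat site of Prlr, with the letters TTCTAGGAA, lay 110 bases before the start, and 8.3% of regions held one. The GC content ranged from 40.7% in Fshr and 45.7% in this region of Prlr to 63.7% in Oxtr and 64% in Lhcgr. The palindromic estrogen response element GGTCANNNTGACC (0.07% of regions), the NR5A half-site AAGGTCA (4.72%) and the GATA site AGATAA (11.2%) were in none of the 6 regions, which says only that these letters are not in these windows.

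Fshr was read at 8.9, 14.7, 6.14, 8.37 and 6.09 FPKM in WT replicates 1 to 5 and at 11.8, 24.5, 20.6 and 18.1 FPKM in ERβKO replicates 1 to 4. WT replicate 2 was the highest of its genotype and lay above ERβKO replicate 1, so the genotypes overlapped through these ovaries. The means were 8.83 ± 3.5 FPKM in WT against 18.7 ± 5.32 FPKM in ERβKO ovaries (n = 5 and 4, SD). ERβKO over WT this is 1.06 on the log2 scale (SE, the standard error, 0.26), for which edgeR's quasi-likelihood test gave an adjusted p of 0.0664. A two-sided exact permutation test of the single gene on log2 FPKM gave p = 0.0317, and from 0.0286 to 0.0714 with each ovary left out in turn, under 0.05 only without WT replicate 2 or ERβKO replicate 1. DESeq2, by which 4.8% of all genes met the same criteria, gave an adjusted p of 0.00405, and edgeR called Fshr without WT replicate 2 (0.0111), without ERβKO replicate 1 (0.0408) or without the filter on low counts (0.0483). Over the 18 alternative fits the log2 fold change stayed between 0.92 and 1.30 and the adjusted p between 0.00405 and 0.262.

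Lhcgr was the most variable of the receptors. It was read at 114.7, 79.1, 37.9, 156 and 248 FPKM in WT replicates 1 to 5, a 6.56-fold range. In ERβKO replicates 1 to 4 it was 21.7, 99.97, 197 and 111.3 FPKM, a 9.07-fold range. The genotypes overlapped over most of their span, and the lowest and the next highest of all 9 ovaries were both ERβKO. Means of 127 ± 80.5 FPKM in WT against 108 ± 71.8 FPKM in ERβKO ovaries (n = 5 and 4, SD) gave -0.26 on the log2 scale (SE 0.60, adjusted p 0.851 in edgeR's test). The error leaves room for a change of either sign: the log2 fold change was 0.15 without WT replicate 5, 0.08 without ERβKO replicate 1, -0.73 without ERβKO replicate 3 and 0.48 in the 7 libraries numbered below 200.

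Prlr was read at 69.6, 30.8, 36.5, 48.3 and 86.4 FPKM in the WT ovaries in order, and at 24.4, 18.8, 35.8 and 30.3 FPKM in the ERβKO ovaries. The 3 highest ovaries were WT and the 3 lowest were ERβKO, with WT replicates 2 and 3 and ERβKO replicate 3 in between. The means were 54.3 ± 23.3 and 27.4 ± 7.34 FPKM (n = 5 and 4, SD), or -0.97 on the log2 scale (SE 0.32, adjusted p 0.135 in edgeR's test). The adjusted p ran from 0.0502 to 0.382 over the 18 alternative fits, none of which called Prlr, and the log2 fold change from -1.14 to -0.67. The exact permutation test of the single gene gave p = 0.0317 on log2 FPKM and 0.0635 on log2 CPM. With each ovary left out in turn the exact p on log2 FPKM ran from 0.0286 to 0.0714, under 0.05 only without WT replicate 2 or ERβKO replicate 3.

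Oxtr stood at 26.8, 10.8, 15.8, 24.6 and 49.1 FPKM in the WT ovaries and at 7, 5.48, 8.27 and 5.49 FPKM in the ERβKO ovaries. All ERβKO ovaries lay below all WT ovaries, which held for 3.31% of the genes tested, while 4.29% of genes were above in all ERβKO ovaries. The fall from 25.4 ± 14.7 to 6.56 ± 1.35 FPKM (n = 5 and 4, SD) came to -1.99 on the log2 scale (SE 0.40), and the adjusted p was 0.0357 with edgeR and 0.000448 with DESeq2. The exact permutation test gave p = 0.0159, the smallest that 5 ovaries against 4 allow. The direction held in all 18 alternative fits (log2 fold change -2.19 to -1.45), while the criteria were met in 9 of them. The call was lost without WT replicate 1 (adjusted p 0.0801), without WT replicate 4 (0.0684) and without ERβKO replicate 1, 2, 3 or 4 (0.0648, 0.125, 0.0671 and 0.106), and in the 7 libraries numbered below 200 (0.0915).

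**Figure D1:**
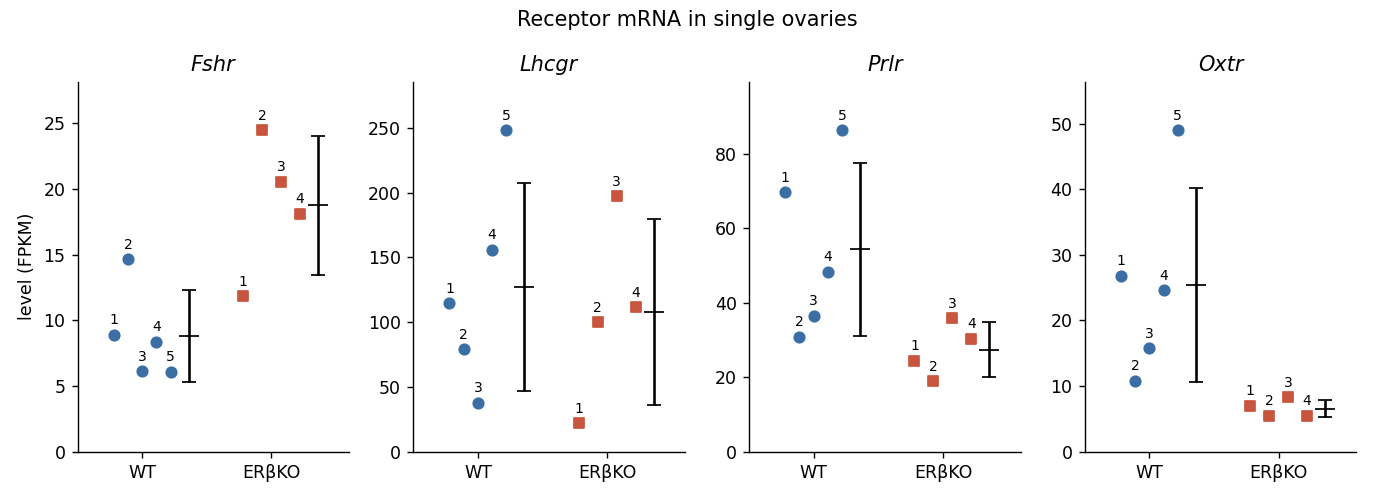
Level of each receptor in FPKM (linear axis from 0, scaled separately for each gene) in the 5 WT (circles) and 4 ERβKO ovaries (squares), numbered by replicate, with bars for the mean ± SD. The genotypes do not overlap for Oxtr, they meet through WT replicate 2 and ERβKO replicate 1 for Fshr, and they overlap widely for Lhcgr.

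The spread among ovaries of 1 genotype differed by receptor. The coefficient of variation in WT and ERβKO ovaries was 39.6% and 28.4% for Fshr, 42.9% and 26.8% for Prlr, and 58% and 20.5% for Oxtr. Lhcgr had 63.3% and 66.7%. For Oxtr the highest WT ovary held 4.53 times the lowest, against 1.51 times among the ERβKO ovaries. No test of these spreads was made.

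**Figure D2:**
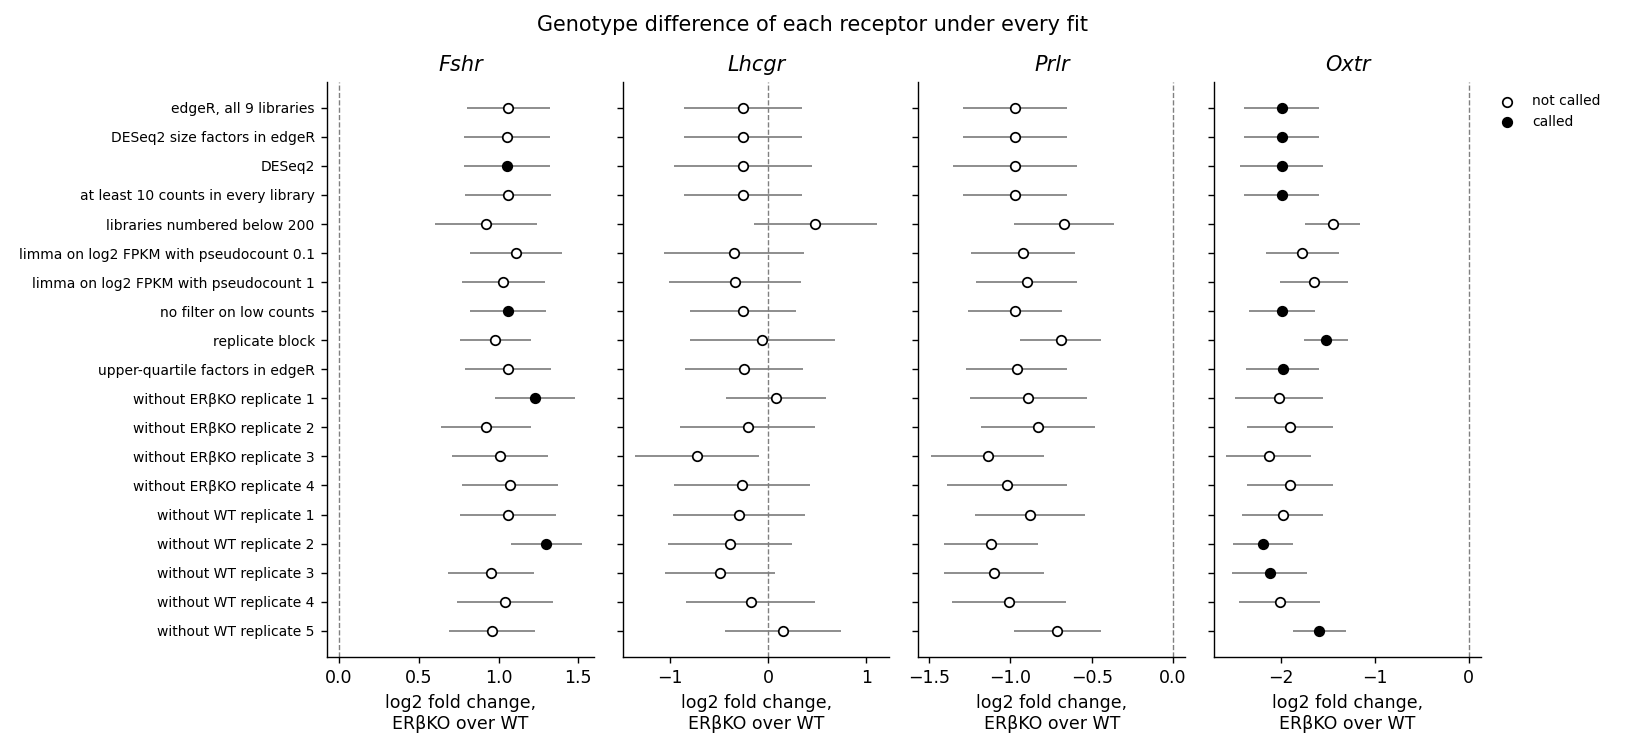
Log2 fold change of ERβKO over WT ± SE for each receptor (1 panel each, with its own axis) in the fit of all 9 libraries and in 18 alternative fits, with filled points where the criteria for a DEG were met. Fshr stays above 0 and Prlr and Oxtr below 0 throughout, while Lhcgr lies on both sides of 0.

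Levels per kilobase can be set against each other within an ovary. Lhcgr was the most abundant of the receptors in all 5 WT ovaries and in ERβKO replicates 2, 3 and 4, and Prlr was in ERβKO replicate 1. Oxtr stood above Fshr in WT replicates 1, 3, 4 and 5, by 2.57 to 8.06 times, and below it in WT replicate 2 and in all 4 ERβKO ovaries, at 0.224 to 0.738 times. Lhcgr and Prlr were close in WT replicate 3 (1.04 times) and in ERβKO replicate 1 (0.89 times), and their order does not hold beyond the spread there. In ERβKO replicate 2, Fshr passed Prlr, which stood at 0.769 times its level.

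These ratios were tested as log2 differences per ovary with two-sided exact permutation tests, adjusted by Benjamini-Hochberg over the 6 pairs. The log2 ratio of Fshr to Oxtr was -1.41 ± 1.22 in WT and 1.47 ± 0.59 in ERβKO ovaries (n = 5 and 4, SD), a 7.36-fold shift (exact p = 0.0159, adjusted 0.0317). Fshr to Prlr went from -2.58 ± 0.99 to -0.55 ± 0.63, a 4.08-fold shift with the same exact and adjusted p. Prlr to Oxtr went from 1.17 ± 0.28 to 2.02 ± 0.32, a 1.8-fold shift, again with these p-values, so Oxtr was lower relative to Prlr too. For these 3 ratios every ERβKO ovary lay above every WT ovary. They combine the same 3 genes, of which Oxtr alone already separated the genotypes, so they are not independent results. How many ratios of other genes would be without overlap was not tested. Ratios that involve Lhcgr overlapped between the genotypes. Lhcgr to Oxtr shifted 2.68-fold (exact p = 0.0794, adjusted 0.119), Fshr to Lhcgr 2.74-fold (exact p = 0.111, adjusted 0.133) and Lhcgr to Prlr 1.49-fold (exact p = 0.381, adjusted 0.381). In the 7 libraries numbered below 200 the log2 shift was 2.30 for Fshr to Oxtr, 1.64 for Fshr to Prlr and 0.66 for Prlr to Oxtr, each at an exact p adjusted to 0.114, the smallest reached there.

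The 3 ratios without overlap were also past the threshold without ERβKO replicate 1 (exact p adjusted to 0.0429) and missed it with any other ovary left out, at an adjusted 0.0571 without a WT ovary and 0.0714 without ERβKO replicate 2, 3 or 4. With 8 ovaries the smallest exact p is 0.0286 or 0.0357 before adjustment, and these ratios were at it each time. Of the ratios with Lhcgr, 2 passed the threshold once ERβKO replicate 1 was left out: the log2 shift then was 2.11 for Lhcgr to Oxtr and 1.18 for Lhcgr to Prlr, both at an exact p adjusted to 0.0429.

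**Figure D3:**
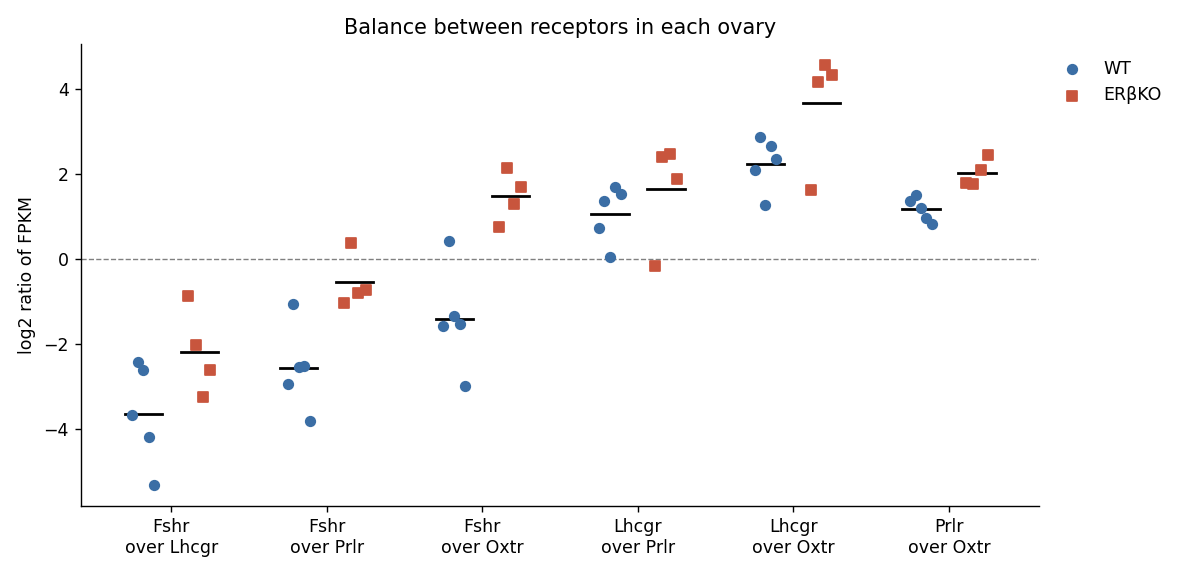
Log2 ratio of the FPKM of 2 receptors in each WT (circles) and ERβKO ovary (squares), for the 6 pairs, with lines at the genotype means and a dashed line where both receptors are equal. The genotypes are apart for Fshr over Prlr, Fshr over Oxtr and Prlr over Oxtr, and ERβKO replicate 1 lies below the other ERβKO ovaries for Lhcgr over Oxtr.

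How the receptors varied together was examined on log2 CPM (counts scaled to library size) over the 9 ovaries. The genotype means were subtracted first, so that a shared genotype difference does not enter, and p-values came from exact permutation within the genotypes, adjusted over 6 pairs. Prlr and Oxtr followed each other with r = 0.89 (exact p = 0.00521, adjusted 0.0312) and rho = 0.95 (exact p = 0.00243, adjusted 0.0146). Without the 2 ovaries farthest from the median of Prlr, r was 0.78. WT replicates 5 and 1 were the highest for both receptors and ERβKO replicate 3 was the highest of its genotype for both. From high to low FPKM, the WT order was replicates 5, 1, 4, 3 and 2 for both. On the first principal component of all genes the WT ovaries stood in this same order. The ERβKO ovaries did not stand in that component's order for either receptor. An r of this size is not particular to these 2 receptors. With the genotype means subtracted, the 5 genes most like Oxtr, given below, reached 0.97 to 0.99 with it. How many genes reach such an r was not tested. Leaving out 1 ovary in turn gave r from 0.81 to 0.94 with adjusted exact p from 0.00833 to 0.219. The adjusted p was over 0.05 without any 1 of the 5 WT ovaries (0.0729 to 0.219) or without ERβKO replicate 3 (0.1). In the 7 libraries numbered below 200, r was 0.82 (exact p adjusted to 0.271).

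Lhcgr and Prlr gave r = 0.68 (exact p = 0.0465, adjusted 0.14) and rho = 0.73 (exact p = 0.0378, adjusted 0.114), with r = 0.79 without the 2 farthest ovaries. Lhcgr and Oxtr gave r = 0.52 (exact p = 0.125, adjusted 0.249) and rho = 0.67 (exact p = 0.0635, adjusted 0.127), with r = 0.86 without the 2 farthest. Neither passed after adjustment. Fshr passed with none of the others within the genotypes, at r = 0.38 with Lhcgr, -0.27 with Prlr and -0.50 with Oxtr, and rho of 0.27, -0.15 and -0.23. The exact p of these r ran from 0.227 to 0.53 (adjusted 0.34 to 0.53) and of these rho from 0.527 to 0.728 (adjusted 0.69 to 0.728), and without the 2 farthest ovaries r was 0.36, -0.11 and -0.22. Over all 9 ovaries without subtraction, Fshr and Prlr gave r = -0.65 (exact p = 0.0608, adjusted 0.115) and rho = -0.62 (exact p = 0.0857, adjusted 0.129), Lhcgr and Prlr r = 0.61 (exact p = 0.0765, adjusted 0.115) and rho = 0.73 (exact p = 0.0311, adjusted 0.0622), and Fshr and Lhcgr r = 0.09 (exact p = 0.81, adjusted 0.81) and rho = -0.03 (exact p = 0.948, adjusted 0.948). Without the 2 farthest ovaries these r were -0.71, 0.66 and -0.15. With 5 and 4 ovaries no r is given within a single genotype. No pooled value is given for pairs of receptors with Oxtr, whose genotypes form separate groups. The r over 9 ovaries used further below to find the genes most like Oxtr includes this genotype difference.

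**Figure D4:**
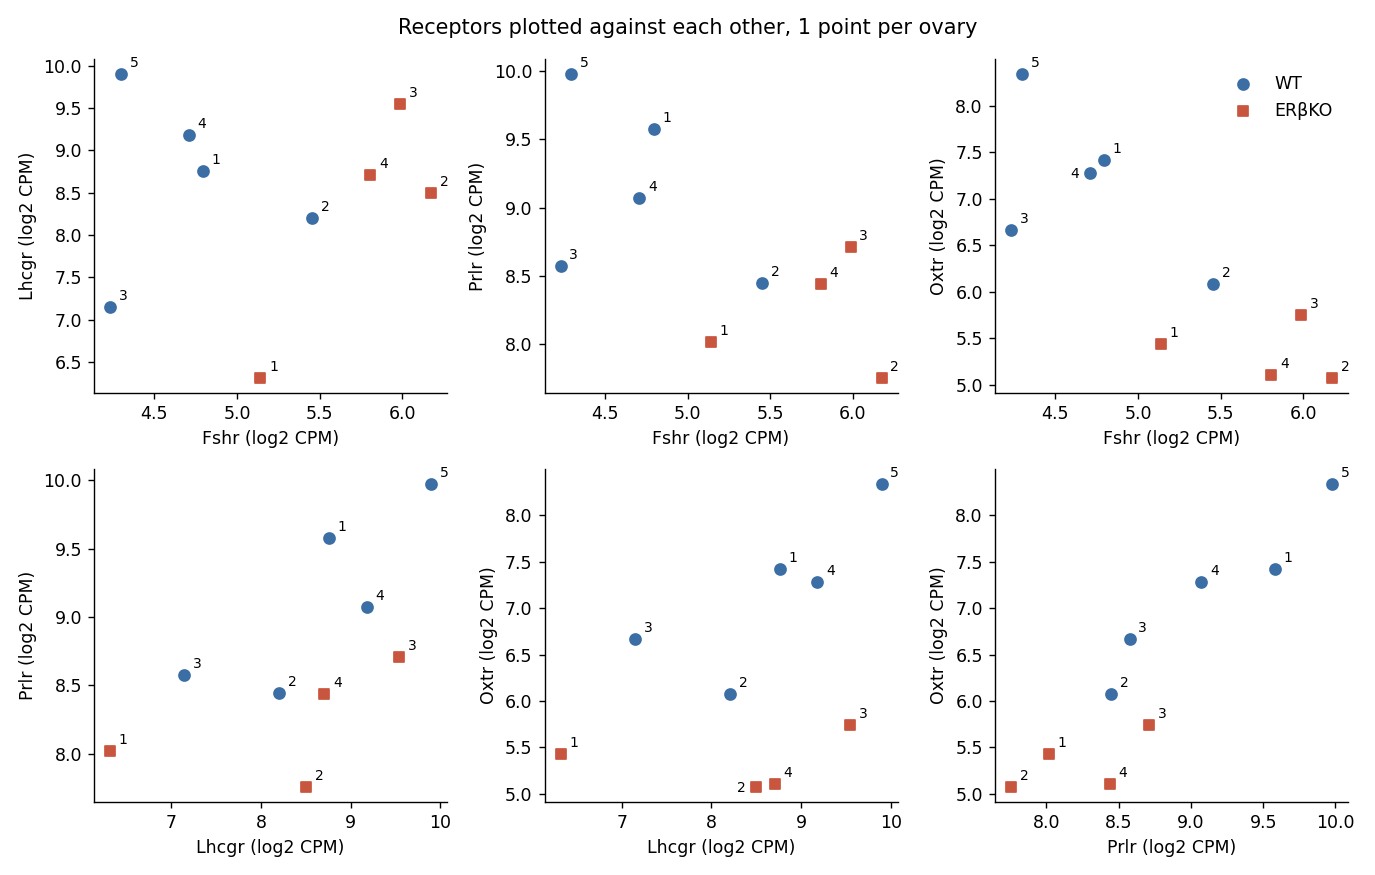
The 6 pairs of receptors plotted against each other as log2 CPM, 1 point per ovary numbered by replicate, WT as circles and ERβKO as squares. Prlr and Oxtr (last panel) rise together among the WT ovaries and, less steeply, among the ERβKO ovaries, while in the panels of Fshr the ERβKO ovaries lie to the right of the WT ovaries, apart from ERβKO replicate 1, which lies left of WT replicate 2.

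The cells that carry these receptors were followed through lists of marker genes. The 8 granulosa markers were all higher in ERβKO ovaries, 1 of them a DEG, and their summed level ran from 638 to 900 FPKM in ERβKO against 505 to 629 FPKM in WT ovaries. Of the 9 luteal markers, 8 were lower and none was a DEG, with sums of 3030 to 6490 FPKM in WT against 2470 to 3850 FPKM in ERβKO ovaries. Theca markers (4 of 5 tested, without Insl3, which was filtered out) summed to 30.7 to 146 and 74.9 to 488 FPKM. Of these, 3 were higher and 1 lower in ERβKO ovaries, none a DEG. Their mean log2 CPM differed by 0.69, while their median log2 fold change was 0.08. The 7 smooth muscle markers, 2 higher and 5 lower and none a DEG, summed to 643 to 1160 and 663 to 814 FPKM. The exact permutation test of the mean log2 CPM of a list gave p = 0.0159 for granulosa, 0.0635 for luteal, 0.0476 for theca and 0.619 for smooth muscle markers. These p-values are not adjusted over the 10 marker lists. The 7 adipocyte markers were all higher in ERβKO ovaries, none a DEG, and summed to 72.2 to 152 and 95.2 to 547 FPKM, and their part in the receptor levels was not tested.

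Each receptor was then expressed relative to the markers of cells known or likely to carry it, with exact permutation tests adjusted over 8 combinations. Relative to the granulosa markers, log2 Fshr was -1.33 ± 0.54 in WT and -0.83 ± 0.32 in ERβKO ovaries (n = 5 and 4, SD), a 1.42-fold difference (exact p = 0.175, adjusted 0.254) with overlapping genotypes. Beside the same markers Prlr was 2.78-fold lower and Oxtr 5.25-fold lower in ERβKO ovaries, each without overlap (exact p = 0.0159, adjusted 0.0635). For Oxtr the lack of overlap was fixed beforehand and adds nothing. Every ERβKO ovary lay below every WT ovary for Oxtr, and above every WT ovary for the granulosa markers. The mean log2 CPM of these markers was at most 6.19 in WT and at least 6.38 in ERβKO ovaries. Beside the luteal markers the genotypes overlapped for each receptor compared. Oxtr was 1.46-fold lower (exact p = 0.27, adjusted 0.27), Prlr 1.29-fold higher (exact p = 0.238, adjusted 0.27) and Lhcgr 1.86-fold higher (exact p = 0.159, adjusted 0.254). Beside smooth muscle markers Oxtr was 3.25-fold lower (exact p = 0.0476, adjusted 0.127), and beside theca markers Lhcgr was 2.08-fold lower (exact p = 0.19, adjusted 0.254). None of the 8 passed after adjustment.

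The genes around the receptors' pathways were read in the same edgeR fit, as 10 lists with 113 genes, of which 104 were tested, 3 were DEGs higher and 4 DEGs lower in ERβKO ovaries. The median log2 fold change of all tested genes was 0.00. Of all tested genes 19.8% were at an unadjusted p under 0.05, against which the counts at that level below are to be read. Of the 104 tested list genes 35 were at it, in lists chosen with earlier results of these data known. Of the hormones themselves, which are made mainly by the pituitary and hypothalamus, Fshb, Cga, Prl, Oxt and Avp had at most 2 counts in any library. The β subunit of luteinizing hormone, Lhb, was read at 3.63 ± 0.757 FPKM in WT against 4.85 ± 1.13 FPKM in ERβKO ovaries (n = 5 and 4, SD, adjusted p 0.231 in edgeR's test). Of 10 relatives of the receptors 8 were tested and none was a DEG in edgeR's test (median log2 fold change 0.34), with 4 at an unadjusted p under 0.05 and 1, Lgr4, called by DESeq2. The R-spondin receptors Lgr4 (log2 fold change -0.49, adjusted p 0.113 in edgeR's test) and Lgr5 (-0.39, 0.0845) came nearest, and the growth hormone receptor Ghr was the most abundant (0.49, 0.193).

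Among 21 tested genes of the Gs and cyclic AMP route, 1 was a DEG (list median -0.07), with 7 at an unadjusted p under 0.05. Prkar2b, a regulatory subunit of protein kinase A, rose from 110 ± 14.8 to 206 ± 43.4 FPKM (n = 5 and 4, SD), 0.86 on the log2 scale (SE 0.15, adjusted p 0.0215 in edgeR's test). The catalytic subunit Prkaca (log2 fold change -0.39, adjusted p 0.11 in edgeR's test) and the adenylyl cyclase Adcy6 (0.20, 0.133) did not pass, and the Gs subunit Gnas (0.09, 0.431) and the regulatory subunit Prkar1a (0.08, 0.578) were the most abundant of the rest. None of the 12 genes of the Gq route of Oxtr was a DEG in edgeR's test (median -0.18), with 6 at an unadjusted p under 0.05 and 3, all lower, called by DESeq2 (Plcb2, Itpr2 and the kinase gene Prkca, the last named after its values were seen). The phospholipase Plcb2, at 3.44 ± 2.03 FPKM in WT against 1.25 ± 0.31 FPKM in ERβKO ovaries (n = 5 and 4, SD), stood at -1.34 on the log2 scale (adjusted p 0.0618 in edgeR's test, 0.00133 in DESeq2). The calcium channel Itpr2 of the endoplasmic reticulum had -0.58 (adjusted p 0.0712 in edgeR's test), and the abundant myosin kinase Mylk -0.14 (0.511) and Plcb3 0.23 (0.1).

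None of the 13 genes of the Jak and Stat route of Prlr was a DEG in edgeR's test (median -0.02), with 2 at an unadjusted p under 0.05 and 1, Cish, called by DESeq2. Cish, a cytokine-induced inhibitor of this route and a known Stat5 target, was read at 6.33 ± 2.78 FPKM in WT against 2.99 ± 0.637 FPKM in ERβKO ovaries (n = 5 and 4, SD), or -1.24 on the log2 scale (SE 0.30, adjusted p 0.0617 in edgeR's test, 0.00137 in DESeq2). Its relative Socs2 had a log2 fold change of 0.17 (adjusted p 0.504 in edgeR's test), the adaptor Grb2 -0.16 (0.129) and Stat3 -0.08 (0.658). The 11 genes of desensitisation and turnover, among them the arrestin Arrb1 (0.18, adjusted p 0.281 in edgeR's test), the ubiquitin ligase subunit Btrc (-0.21, 0.244), the G protein regulator Rgs2 (0.23, 0.486) and the adaptor Gipc1 (0.02, 0.928), had log2 fold changes between -0.29 and 0.23, with 1 at an unadjusted p under 0.05 and no DEG by edgeR or DESeq2. None of the 11 transcription factors known to act on these receptor genes was a DEG in edgeR's test (median 0.04), with 2 at an unadjusted p under 0.05 and 1, Gata4, called by DESeq2. Gata4, a factor of granulosa and theca cells, had the smallest p (log2 fold change 0.63, adjusted p 0.0628 in edgeR's test), followed by Nr5a1 (0.39, 0.139), and Nr5a2, the gene of LRH-1, had 0.11 (0.742) and Usf2 0.04 (0.816).

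Genes known to respond to the hormones held the other DEGs. Cyp19a1, Hsd17b1, Inha and Inhba of these lists are granulosa markers as well, and Star, Cyp11a1, Hsd3b1, Hsd17b7, Akr1c18, Ptgfr and Scarb1 are luteal markers, so these lists and the marker lists above are not independent. Of 8 genes that respond to follicle-stimulating hormone, 2 were DEGs higher and 1 was a DEG lower (median log2 fold change 0.62). In this list 5 were at an unadjusted p under 0.05. Inhbb, the inhibin and activin βB subunit, rose from 46.2 ± 6.14 to 100 ± 20.8 FPKM (n = 5 and 4, SD), a log2 fold change of 1.09 (SE 0.15, adjusted p 0.00883 in edgeR's test). Hsd17b1, which converts estrone to estradiol, rose from 48.2 ± 9.03 to 85.1 ± 18.5 FPKM, a log2 fold change of 0.77 (SE 0.16, adjusted p 0.0363). The kinase gene Sgk1 fell from 104 ± 54.7 to 25.1 ± 8.51 FPKM, a log2 fold change of -2.06 (SE 0.40, adjusted p 0.0343). The inhibin α subunit Inha (0.50, adjusted p 0.061 in edgeR's test), cyclin D2 Ccnd2 (0.53, 0.148) and the βA subunit Inhba (0.74, 0.352) did not pass, while DESeq2 called Inha (0.00651).

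Of 13 genes that respond to luteinizing hormone 12 were tested, and 2 were DEGs, both lower (median -0.42). In this list 4 were at an unadjusted p under 0.05. The transcription factor gene Runx2 fell from 28 ± 19.1 to 2.32 ± 0.581 FPKM (n = 5 and 4, SD), a log2 fold change of -3.57 (SE 0.60, adjusted p 0.0185 in edgeR's test). Runx1 fell from 8.71 ± 2.27 to 4.39 ± 0.424 FPKM, a log2 fold change of -0.99 (SE 0.16, adjusted p 0.0158). Star and Cyp11a1, which start steroid synthesis from cholesterol, had log2 fold changes of -1.91 and -0.86 (adjusted p 0.0573 and 0.128 in edgeR's test, 0.00326 and 0.0246 in DESeq2, which called both). Of 7 genes of the prolactin response and the corpus luteum, 1 was a DEG, lower (median -0.83), and 3 were at an unadjusted p under 0.05. Cdkn1b, which encodes the cell cycle inhibitor p27, fell from 81.4 ± 28.5 to 27.3 ± 6.4 FPKM, a log2 fold change of -1.56 (SE 0.24, adjusted p 0.0139). The luteal enzyme Hsd17b7 (-2.48, adjusted p 0.118 in edgeR's test), the steroid enzyme Hsd3b1 (-0.61, 0.154) and the lipoprotein receptor Scarb1 (-0.83, 0.294) did not pass, while DESeq2 called Hsd17b7 (0.0353).

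The call of Inhbb held with each ovary left out in turn and in the 7 libraries numbered below 200 (highest adjusted p 0.0402 in edgeR's test). The other 6 calls were lost in those 7 libraries (adjusted p 0.0654 to 0.134). They also depended on single ovaries, with adjusted p up to 0.0611 for Cdkn1b and 0.0671 for Runx1 (each lost without ERβKO replicate 2 or 4), and 0.0737 for Runx2 (without ERβKO replicate 2, 3 or 4). Prkar2b reached 0.0749 (lost without WT replicate 1 or ERβKO replicate 2, 3 or 4), Sgk1 0.118 (without WT replicate 1, 4 or 5 or ERβKO replicate 1, 2 or 4) and Hsd17b1 0.109 (without WT replicate 1, 4 or 5 or any 1 of the ERβKO ovaries).

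**Figure D5:**
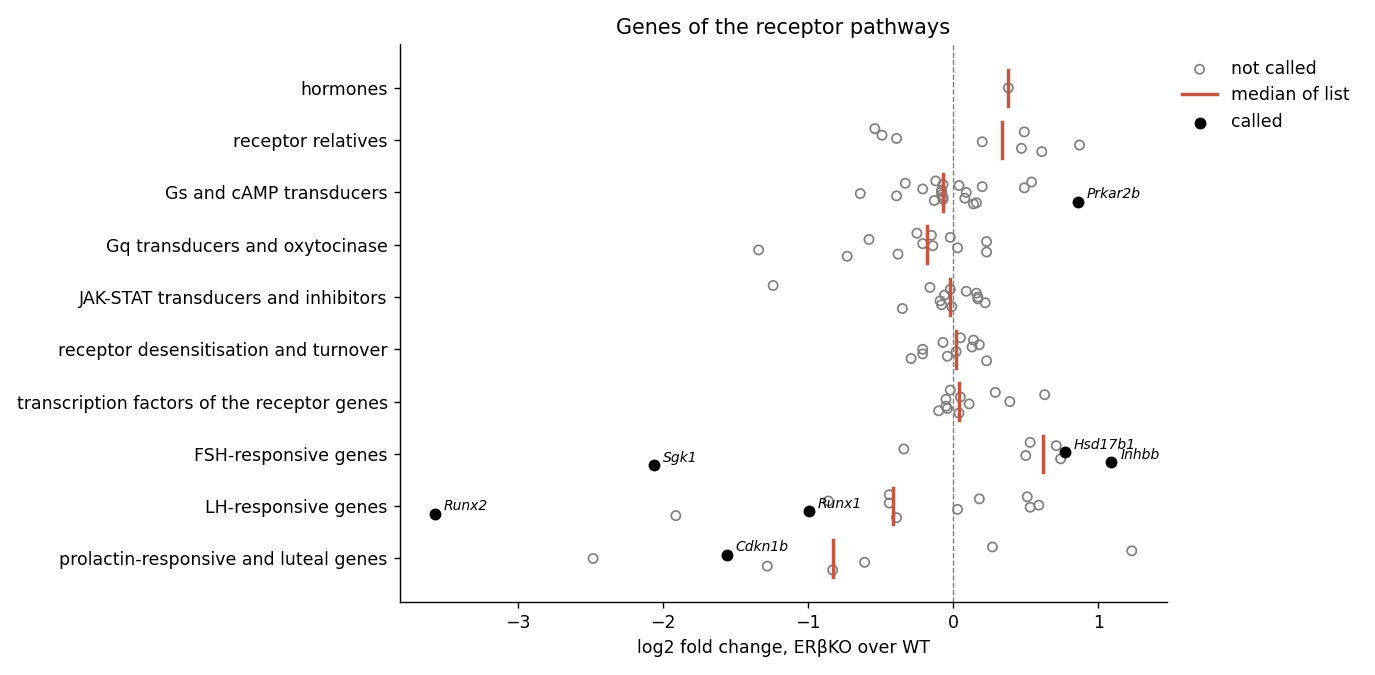
Log2 fold change of ERβKO over WT for every tested gene of the 10 pathway lists, with filled named points for DEGs, open points for the rest and a vertical line at the median of each list. The 7 named genes are Prkar2b, Inhbb and Hsd17b1 above 0 and Sgk1, Runx1, Runx2 and Cdkn1b below 0.

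Beside the receptors on the chromosomes, within 1 Mb, stood 8 tested genes for Fshr, 8 for Lhcgr, 14 for Prlr and 25 for Oxtr. The windows of Fshr and Lhcgr overlap and each holds the other receptor, so these are 49 different genes. Of the 49, 1 was a DEG in edgeR's test, beside 1.72% of all tested genes. At an unadjusted p under 0.05 stood 1, 1, 0 and 8 genes of these windows, beside 19.8% of all tested genes. The 1 beside Lhcgr was Fshr itself. Ssu2, the nearest tested gene below Oxtr at 85.7 kb, fell from 6.19 ± 4.98 to 0.348 ± 0.0798 FPKM (n = 5 and 4, SD), a log2 fold change of -4.13 (SE 0.81, adjusted p 0.0345 in edgeR's test). Its call was lost without WT replicate 1, 4 or 5 or any 1 of the ERβKO ovaries (adjusted p up to 0.12). The Rosa26 locus, the site of the Cre in the deleter line, lies in the same window, with Gt(ROSA)26Sor at chr6:113067428-113077333, 577.6 kb from Oxtr and 679.4 kb from Ssu2. Gt(ROSA)26Sor, looked up after the other values were seen, had 5.77 ± 0.877 FPKM in WT against 5.09 ± 0.939 FPKM in ERβKO ovaries (n = 5 and 4, SD), a log2 change of -0.19 (adjusted p 0.577 in edgeR's test). Whether these ERβKO mice still carried the Cre or DNA of that line around it is not given in the sources used here, and for Oxtr and Ssu2 this cannot be told apart from the loss of ERβ. On the other side of Oxtr, 130.0 kb away, the DNA repair gene Rad18 had a log2 fold change of -0.42 (adjusted p 0.0853 in edgeR's test). Agxt2 and Spef2 beside Prlr (-0.77 and 0.31, adjusted p 0.429 and 0.478 in edgeR's test) and Gtf2a1l beside Lhcgr (-0.17, 0.879) did not pass.

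The genes whose log2 CPM was most like that of a receptor over the 9 ovaries were sought among 14178 genes, and r is a description, since genes of the same libraries share depth and cell makeup. Nearest to Oxtr were Tdg (r = 0.992), Nrn1 (0.991), Avpi1 (0.991), Mfsd4 (0.991) and Acsl4 (0.988), with r from 0.97 to 0.99 once the genotype means were subtracted. Nrn1, Avpi1 and Acsl4 were themselves DEGs, at log2 fold changes of -2.27, -1.49 and -1.36 (adjusted p 0.0366, 0.0366 and 0.046 in edgeR's test). As genes picked for likeness to Oxtr, whose genotypes do not overlap, they were favoured to differ between the genotypes. These calls are therefore no separate result. Among the genes nearest to Prlr were Zfp617 (r = 0.978), Mrps23 (0.976), Aplp2 (0.972) and Cttn (0.970). Fshr was nearest to Espn (0.980), Drp2 (0.968), Crtc1 (0.958), Icosl (0.958) and Bpifa3 (0.958). Lhcgr was nearest to Tusc1 (0.954), RP23-386C10.8 (0.931), the amino acid transporter Slc38a5 (0.926), Gm12183 (0.919) and the G protein subunit Gng5 (0.914). None of the genes named as nearest to Prlr, Fshr or Lhcgr was a DEG, and no receptor was among the 5 nearest of another.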

How the data were processed

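RNA-seq libraries of 5 WT and 4 ERβKO whole ovaries were prepared by the authors from polyadenylated RNA with strand kept, and read pairs of 150 bp were mapped to GRCm38 (mm10) with STAR. The submitters' processing notes also name bcl2fastq 2.20.0.422, CASAVA and Trim Galore. The deposited counts, made by the authors with FeatureCounts, are numbers of fragments per gene with no scaling, and the strand setting is not given in the sources used here. The deposited FPKM are the authors' StringTie values, fragments per kilobase of gene scaled to the mapped fragments of a library. The deposited TPM and the authors' mean coverage per base were not used for a result. For Prlr, with its many transcripts, FPKM depends on how StringTie treated them, so its log2 fold change was taken from counts, while the exact tests of single receptors and the ratios between receptors rest on FPKM.

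The count tests ran in edgeR 4.0.16 (filterByExpr, TMM, quasi-likelihood test), with DESeq2 1.42.0 and limma 3.58.1 as alternatives, under R 4.3.3, and the exact tests in Python 3.11.15 with SciPy 1.17.1. The fit ran over 16722 of 46078 genes, Benjamini-Hochberg adjusted over all of them, and the criteria for DEGs are the study's, whose tool was DESeq2. The common biological coefficient of variation was 0.179. Log2 CPM used a prior count of 2 and log2 FPKM a pseudocount of 0.1, and fold changes on those scales understate the change of low genes. Exact permutation tests were two-sided over 126 splits of the ovaries (smallest p 0.0159), or over 2880 orders within genotypes. P-values set a difference or a correlation against the variation between these ovaries, 1 library each.

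Named were the receptors, the DEGs of each list with the 2 uncalled genes of smallest p and the 2 of highest FPKM, the 5 genes most like each receptor and the nearest tested genes. The receptors, lists and tests were chosen with earlier results of these data known. Alternatives were DESeq2, other size factors and filters, limma with 2 pseudocounts, the replicate number as a block, libraries left out and those numbered below 200. On simulated counts, edgeR called 96% of the genes changed by 1 and 100% of those changed by 2 on the log2 scale, with 4.85% of calls false, and DESeq2 called the same shares with 9.26% false. Every simulated gene had the common coefficient of variation of 0.179, and only genes above a minimum count were changed. The receptors varied more than that within each genotype, so these shares do not apply to them. Start regions came from RefSeq (GRCm38.p6), with all 4 receptors matched, and exons from GENCODE M21. Protein sequences were not used here, and values of some single genes that this rule names are not reported here.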

Additional observations from a re-analysis of the deposited data

Results flagged for a closer look

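In 1 of 36 groups of ovaries a single sample lay far from the others by Dixon's test at 95%, where chance gives about 1.8. The log2 ratio of Lhcgr to Oxtr was 1.62 in ERβKO replicate 1 and 4.17 to 4.56 in the other 3 ERβKO ovaries and the gap was 0.867 of the range of the 4. This ovary had the lowest Lhcgr of all 9, at 21.7 FPKM, and 7 FPKM of Oxtr, within the range of its genotype.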

How the results depend on the processing

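With 5 and 4 ovaries of unknown cycle stage, small differences and those of Lhcgr were beyond what these libraries resolve. The adjusted p of Oxtr under alternatives ran from 0.000448 to 0.125. DESeq2 called 2 of the receptors (Fshr at 1.05, adjusted p 0.00405), 5 list genes higher and 12 lower, and 5 neighbours (Ssu2, Rad18, Srgap3, Cidec and Fshr itself beside Lhcgr; Srgap3 and Cidec were named after their values were seen). Over all genes DESeq2 called 802 and edgeR 287. Without a filter on low counts 2 receptors (Fshr at 1.06, adjusted p 0.0483) and 388 genes were called. Limma on log2 FPKM called 0 receptors, with Oxtr at -1.77 (adjusted p 0.0798) with a pseudocount of 0.1 and -1.65 (0.0625) with a pseudocount of 1, and 94 and 169 genes; 2961 and 3088 genes were under an unadjusted p of 0.05. In log2 CPM the exact test of Prlr gave -0.90 (p = 0.0635).

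In the 7 libraries numbered below 200 edgeR called 51 genes (2328 at an unadjusted p under 0.05; DESeq2 was not run on them), 0 receptors, 0 neighbours, 1 list gene higher and 0 lower. There Oxtr was at -1.45 (adjusted p 0.0915) and Lhcgr turned to 0.48 (0.781). Exact tests of single receptors gave 0.96 (p = 0.114) for Fshr, 0.25 (0.857) for Lhcgr, -0.68 (0.114) for Prlr and -1.35 (0.0571) for Oxtr, and 2.30, 1.64 and 0.66 for the log2 ratios of Fshr to Oxtr, Fshr to Prlr and Prlr to Oxtr (adjusted exact p 0.114). The centred r of Prlr and Oxtr was 0.82 (adjusted exact p 0.271). Fewer ovaries raise the smallest p of these tests; the cause of the other changes was not tested. The values of this setting for ratios, correlations, lists and neighbours, and the alternatives for neighbours, were chosen after seeing the data.

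Replicate numbers did not pair the ovaries (correlations of same-numbered deviations 0.0948, 0.13, -0.0427 and -0.0105). A block on the replicate number therefore matches no real pairs, and it takes WT replicate 5, which has no ERβKO counterpart, out of the genotype comparison. In that fit Oxtr was called at -1.52 (adjusted p 0.0481), Fshr was at 0.98 (0.114), Prlr at -0.69 (0.262) and Lhcgr at -0.06 (0.98). It called 155 genes and 0 neighbours.

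With each ovary left out in turn, 60 (without ERβKO replicate 2) to 919 genes (without WT replicate 2) were called, 0 to 2 receptors, 0 to 4 neighbours, and 1 to 8 list genes higher and 0 to 14 lower. The log2 fold change ran from 0.92 to 1.30 for Fshr, -0.73 to 0.15 for Lhcgr and -2.19 to -1.59 for Oxtr. Differences in log2 FPKM ran from 0.96 to 1.31 for Fshr, -0.76 to 0.29 for Lhcgr and -1.10 to -0.73 for Prlr. Log2 ratios shifted by 2.48 to 3.34 for Fshr to Oxtr, 1.72 to 2.41 for Fshr to Prlr, 0.71 to 0.94 for Prlr to Oxtr, 1.13 to 2.11 for Lhcgr to Oxtr and 0.30 to 1.18 for Lhcgr to Prlr. The centred r ran from 0.81 to 0.94 for Prlr and Oxtr, 0.58 to 0.81 for Lhcgr and Prlr, -0.070 to 0.66 for Fshr and Lhcgr and -0.53 to 0.12 for Fshr and Prlr, and the pooled r from -0.16 to 0.39 for Fshr and Lhcgr and -0.79 to -0.52 for Fshr and Prlr.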

Other observations

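Other cell types were followed with marker lists that enter no comparison above. The stromal markers summed to 415 to 600 FPKM in WT against 578 to 629 FPKM in ERβKO ovaries, and the endothelial markers to 63.5 to 79.2 and 64.6 to 76.5 FPKM. The macrophage markers summed to 56.5 to 100 and 71.2 to 99.5 FPKM. Markers of the oviduct epithelium, which lies beside the ovary, summed to 1370 to 2480 and 1610 to 2040 FPKM. The 7 tested oocyte markers (of 8, without Figla) were all higher in ERβKO ovaries, none a DEG, and summed to 30.9 to 99.8 and 68.2 to 136 FPKM. Exact permutation tests of the mean log2 CPM, not adjusted over the lists, gave p = 0.46 for stroma, 0.206 for endothelium, 0.587 for macrophages, 0.159 for oviduct and 0.206 for oocytes.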
